A study of Rattus norvegicus with 4 samples.

Results

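Cholesterol synthesis in exposed NR8383 cells was described from 9 genes, namely 8 enzymes of the pathway (Hmgcs1, Idi1, Fdps, Fdft1, Sqle, Lss, Cyp51 and Dhcr7) and Insig1, which restrains it. They were found on the arrays by the RefSeq accession of each probe, and 9 of 9 had a probe, out of 16581 genes that could be named this way. NR8383 is a rat alveolar macrophage line first obtained by lung lavage. Total RNA came from 4 cultures at 20 passages, grown in medium with fetal bovine serum and exposed for 4 h to the pristine single-walled carbon nanotube NRCWE055 at a surface dose of 11 cm2/cm2. Each culture was read on its own 1-colour array, and the study design calls the cultures biological replicates. All 4 samples formed 1 exposed group. Unexposed cells were not analysed here, so no value is a response to the nanotube. Replicates 2, 3 and 4 carry different nanotube numbers in their source names (NRCWE056, NRCWE057 and NRCWE058), while their titles name NRCWE055 and the treatment entry is the same for every sample. The titles were followed, and the values of each replicate are given so that replicate 1 can also be read alone.

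Cholesterol is built in the cytosol and endoplasmic reticulum from acetyl-CoA, through mevalonate and isoprene units to squalene, and then through lanosterol to the finished sterol. When sterols run low in the endoplasmic reticulum, the escort protein SCAP carries the transcription factor SREBP to the Golgi, where proteases release it to switch on the genes of the pathway. INSIG proteins hold SCAP back when sterols are plentiful, and INSIG1 is itself a target of SREBP. Macrophages take up much of their cholesterol from lipoproteins and engulfed cells, and that supply can reduce their own synthesis.

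SREBPs bind sterol regulatory elements and work beside the factor NF-Y, which binds the CCAAT box, and Sp1, which binds the GC box. RefSeq promoters of assembly GRCr8 were matched for 7 of the 9 genes. The 250 bases before each start were searched on both strands for the letters TCACNCCAC (sterol regulatory element), CACGTG (E-box), CCAAT and GGGCGG (GC box). The windows of Idi1 and Fdps are printed because each holds the CCAAT box in a pair, as that of Hmgcs1 does too, and the window of Insig1 because it also holds an E-box. They run 5′ to 3′ toward the gene, and capitals mark the letters found on either strand. The Insig1 window stops after 207 bases, where the annotated span of the gene begins.
Idi1, chr17:66547525-66547774, minus strand: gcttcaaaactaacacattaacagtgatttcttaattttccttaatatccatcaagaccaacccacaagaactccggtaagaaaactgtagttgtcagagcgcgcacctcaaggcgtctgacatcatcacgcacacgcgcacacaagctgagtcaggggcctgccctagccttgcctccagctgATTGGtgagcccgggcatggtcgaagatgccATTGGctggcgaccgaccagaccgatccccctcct
Fdps, chr2:176804817-176805066, minus strand: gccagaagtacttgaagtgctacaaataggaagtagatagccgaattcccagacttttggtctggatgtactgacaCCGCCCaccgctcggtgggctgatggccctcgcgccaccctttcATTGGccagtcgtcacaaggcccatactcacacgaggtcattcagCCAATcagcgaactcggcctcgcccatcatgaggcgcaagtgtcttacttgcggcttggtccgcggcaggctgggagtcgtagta
Insig1, chr4:8057813-8058019, minus strand: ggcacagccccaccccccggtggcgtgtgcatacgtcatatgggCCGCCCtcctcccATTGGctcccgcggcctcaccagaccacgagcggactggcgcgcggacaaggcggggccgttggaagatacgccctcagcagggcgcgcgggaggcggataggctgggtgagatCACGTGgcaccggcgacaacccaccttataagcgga

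In the Idi1 promoter the CCAAT letters lay 66 and 35 bases before the start, and in the Fdps promoter 130 and 85 bases before it. The Insig1 promoter had them 193 bases and the E-box 79 bases before the start. CCAAT was found in 5 of the 7 windows (Hmgcs1, Idi1, Fdps, Lss and Insig1), and in 34% of 33469 rat promoters of the same length. The Hmgcs1 window lies wholly inside the annotated span of its gene, so it is counted here but not printed. A GC box was found in 6 of 7, all but Idi1, beside 30.5% of all promoters, and the pair of GC boxes in the Dhcr7 window overlapped. The E-box was in 1 of 7 windows (5.59% of all promoters). The sterol regulatory element in this spelling was in 0 of 7 windows and in 0.974% of all promoters, which says only that these letters are not in these windows.

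Each of the 13 probes of the 9 genes passed the scanner software's test of being well above background on every array. So 9 of 9 genes were detected on all 4 arrays, beside 52.4% of all named genes. The raw median signal of their spots was 5.68 to 312 times that of the local background. None of their spots was saturated or marked as an outlier. Signals are given first as processed by the scanner software, in arbitrary units that were not scaled between arrays. Levels are log2 signals relative to the 75th percentile of an array, taken over those probes that all 4 arrays detected, as mean ± SD over 4 arrays. They describe a probe and are not compared between genes.

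Replicates 2 and 3 were brighter arrays than replicates 1 and 4. Their 75th percentile signals were 1756, 2631, 2861 and 1873 on replicates 1 to 4, a range of 1.63-fold. The members followed this, since each of the 13 probes was brightest on replicate 2 or 3 before scaling. Each array detected 40.8% to 43.7% of 45598 probes. Macrophage markers were detected for 8 of 8 genes, with summed signals over 9 probes of 21.3 to 23.1 times the 75th percentile. Markers of other lung and blood cells were detected on all 4 arrays for 4 of 16 genes with a probe (Pecam1, Cdh5, Vwf and S100a8). The summed signals of all 19 probes of these other markers were 3.94 to 4.82 times that percentile. Col1a1 passed the background test on 1 array, and Dcn and Kdr passed it on 2 arrays each. Epcam, Cdh1, Sftpc, Sftpb, Scgb1a1, Col3a1, Cd3e, Cd8a and S100a9 passed that test on none of the arrays. In bulk RNA a share of cells with less of a transcript and less transcript in every cell cannot be told apart.

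**Figure D1:**
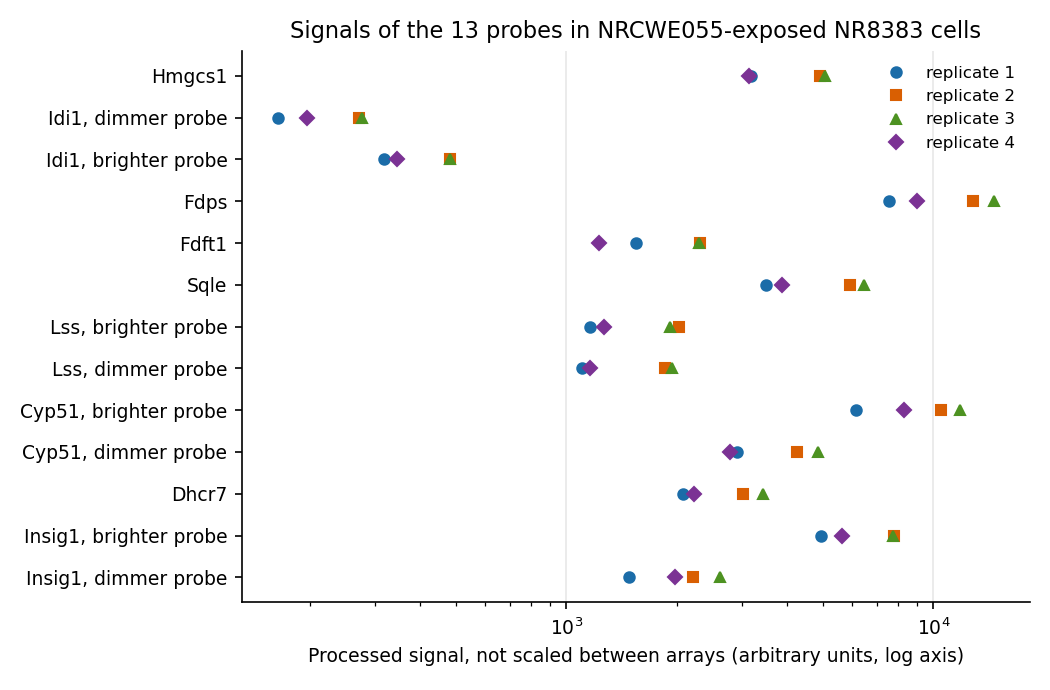
Processed signal of each of the 13 probes (log axis, arbitrary units, not scaled between arrays) in the 4 exposed cultures, 1 symbol per replicate. Within each probe the symbols of replicates 2 and 3 lie to the right of those of replicates 1 and 4, as the arrays' 75th percentiles do.

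Early steps make the isoprene units. Hmgcs1, the cytosolic synthase of an early step before mevalonate, had signals of 3183, 4909, 5078 and 3136 on replicates 1 to 4. Its level was 0.83 ± 0.07 (SD, n = 4), and the arrays spanned 1.11-fold. The cultures were therefore close once array brightness was scaled. Idi1, the isomerase that makes the reactive isoprene unit, had 2 probes. The brighter gave signals of 318, 481, 481 and 346, and the dimmer 163, 273, 277 and 197, on replicates 1 to 4. Their levels were -2.48 ± 0.06 and -3.33 ± 0.08 (SD, n = 4 each). No array stood out on the mean of both probes, which spanned 1.09-fold.

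Fdps joins isoprene units into farnesyl diphosphate, the branch point between sterols, dolichol and protein prenylation. Its probe, printed 10 times per array, had mean signals of 7587, 12830, 14615 and 9038 on replicates 1 to 4. The levels were 2.11, 2.29, 2.35 and 2.27, lowest on replicate 1, with a mean of 2.26 ± 0.10 (SD, n = 4). The arrays spanned 1.18-fold.

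The next 3 enzymes commit the carbon to sterols. Fdft1, squalene synthase, had signals of 1550, 2304, 2293 and 1224 on replicates 1 to 4. Its levels were -0.18, -0.19, -0.32 and -0.61, so replicate 4 was the lowest. Fdft1 had the largest SD of the 9 genes, at -0.33 ± 0.20 (SD, n = 4) with a span of 1.35-fold, and it was measured by 1 spot per array. Without replicate 4 the largest SD among the 9 genes was 0.122, that of Fdps.

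Sqle, squalene epoxidase, whose step is an oxygen-dependent control point, had mean signals of 3486, 5908, 6464 and 3875 over 10 spots per array. Its levels of 0.99, 1.17, 1.18 and 1.05 on replicates 1 to 4 had an SD of 0.09 (n = 4). Replicates 2 and 3 were nearly equal and lay above the other two. Lss, the cyclase that folds the epoxide into lanosterol, had a pair of probes of nearly the same brightness. One gave signals of 1156, 2021, 1919 and 1266 and the other 1101, 1855, 1935 and 1161 on replicates 1 to 4. Their levels were -0.53 ± 0.10 and -0.61 ± 0.09 (SD, n = 4 each). Both Lss probes were highest on replicate 2.

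Cyp51, the cytochrome P450 that demethylates lanosterol, was read by a brighter probe printed 10 times and a dimmer probe printed once per array. The brighter had mean signals of 6139, 10470, 11806 and 8337 on replicates 1 to 4, and levels of 1.81, 1.99, 2.05 and 2.15. The dimmer had signals of 2918, 4257, 4844 and 2798, and levels of 0.73, 0.69, 0.76 and 0.58. The probes disagreed on replicate 4, which was the highest array for the brighter probe and the lowest for the dimmer. Dhcr7, the reductase of the final step in one branch, had signals of 2073, 3024, 3432 and 2231. At 0.24 ± 0.03 (SD, n = 4), with a span of 1.04-fold, Dhcr7 had the smallest SD of the 9 genes over all 4 arrays. Without replicate 1 the smallest was that of Cyp51 (0.0221), and without replicate 4 that of Insig1 (0.0180). Each of these is the SD of the mean of 2 probes that did not move together. Among the arrays kept, replicate 4 was highest for the brighter Cyp51 probe and lowest for the dimmer. Replicate 3 was lowest for the brighter Insig1 probe and highest for the dimmer.

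Insig1, the membrane protein that holds back SCAP and so the release of SREBP, also had 2 probes. The brighter gave signals of 4945, 7806, 7769 and 5643, and the dimmer 1481, 2206, 2617 and 1978, on replicates 1 to 4. Levels were 1.52 ± 0.07 for the brighter and -0.14 ± 0.15 for the dimmer (SD, n = 4 each). Replicate 4 was the highest array for both, at 1.59 against 1.44 to 1.57 for the brighter and 0.08 against -0.25 to -0.13 for the dimmer.

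The scanner software gives each spot an error of its own, which was 10% to 10.3% of the signal for these probes, or about 0.14 on the log2 scale. That estimate covers the reading of a spot and not the spread between cultures, and it is stated for 1 spot, not for a mean of 10. The SD of the level over the 4 arrays ran from 0.03 to 0.20 over the 13 probes, and it was largest for Fdft1, the dimmer Insig1 probe and the brighter Cyp51 probe.

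**Figure D2:**
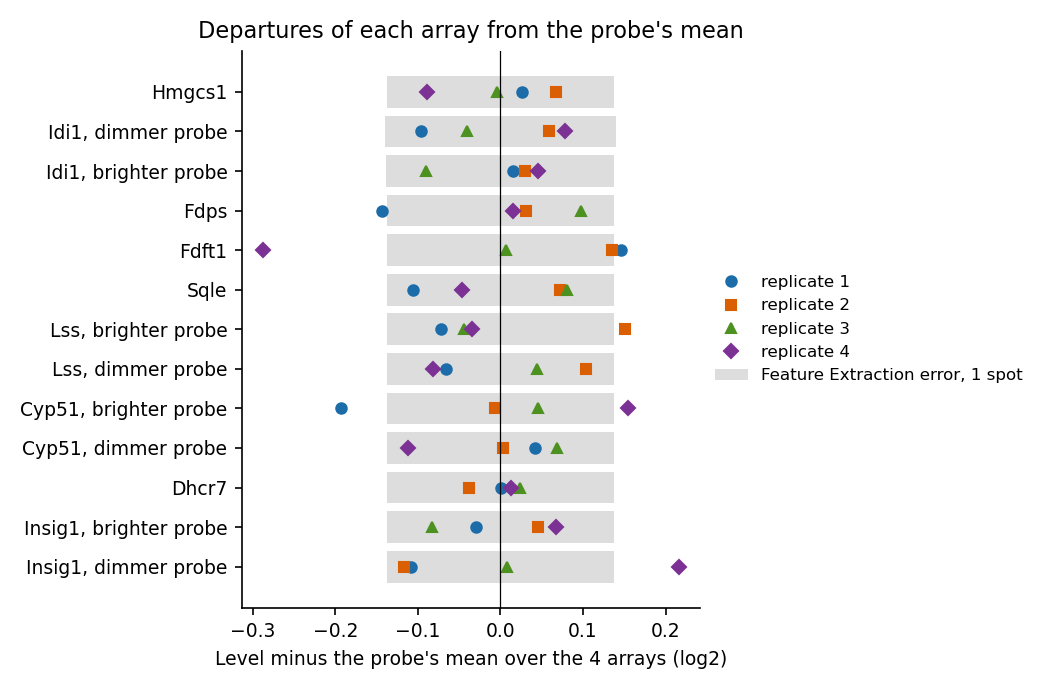
Level of each probe on each array minus that probe's mean over 4 arrays (log2), 1 symbol per replicate. Grey bars show the scanner software's error for 1 spot, about 0.14 either way, as a scale for reading error only; Fdft1 on replicate 4, the brighter Cyp51 probe on replicate 1 and the dimmer Insig1 probe on replicate 4 lie farthest outside them.

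None of the 9 genes spanned over 2-fold between arrays, beside 1.11% of 8685 detected named genes. Their median SD was 0.0899 on the log2 scale, against 0.0926 over all detected named genes. On the mean of a gene's probes, 3 of the 9 (Fdps, Fdft1 and Insig1) had an SD above that median of all genes. Taken singly, the brighter Cyp51 probe (0.145) and 1 Lss probe (0.102) also lay above it. The brighter Insig1 probe (0.0689) lay below it. With every array kept, the spread of the 9 genes was thus near that of all detected named genes. No test was made of the list.

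Departures from each gene's own mean were small and shared by some members. On replicate 1 the median departure of the 9 genes was -0.07, on replicate 2 it was 0.04, and on replicates 3 and 4 it was 0.01 each, while over all detected genes it lay between -0.01 and 0.01. Replicate 1 was the lowest array for 5 of the 9 (Fdps, Sqle, Lss, Cyp51 and Insig1), beside 30.8% of all detected genes. These counts use the mean of a gene's probes. Among these 5 genes, replicate 1 was lowest for the Fdps and Sqle probes, 1 Lss probe and the brighter Cyp51 probe. The brighter Insig1 probe was lowest on replicate 3 and the dimmer on replicate 2. The dimmer Idi1 probe was also lowest on replicate 1. Under 3 other scalings and another background correction replicate 1 was the lowest for 4 to 6 of the 9. Over all detected genes it was the lowest for 31.3% to 34.9% under the scalings and for 16.9% with the normexp background correction. The members' median departure minus that of all genes was -0.15 to -0.04 there. These are descriptions of 4 replicates of 1 condition and were not tested.

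Printing a probe 10 times shows how far arrays differ beyond the noise of spots. Fdps, Sqle and Cyp51 had such a probe, and each differed between arrays in limma's moderated F test over replicate spots, with Benjamini-Hochberg adjustment over 1742 probes printed several times. Of those 1742 probes 42.6% differed at an adjusted p under 0.05, and of the 1038 printed 10 times 65.3% did, so 3 of 3 is close to what such probes show. The test compares arrays, and culture, labelling and hybridisation cannot be told apart in it.

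The Cyp51 probe had the largest difference between arrays, 0.35 on the log2 scale (limma adjusted p = 1.52e-08). Its spots ranged from 1.73 to 1.89 on replicate 1 and from 2.03 to 2.26 on replicate 4, so these arrays did not overlap. Without replicate 1 the largest difference was 0.15 (limma adjusted p = 0.0107), and without replicate 4 it was 0.23 (limma adjusted p = 4.17e-05). For Fdps the largest difference was 0.24 (limma adjusted p = 6.13e-05), between replicates 1 and 3. Fdps spots ran from 1.97 to 2.33 on replicate 1 and from 2.27 to 2.44 on replicate 3, and thus overlapped. Without replicate 1 the Fdps difference was 0.08 (limma adjusted p = 0.244), and from median signals with normexp background correction it was 0.29 (limma adjusted p = 0.0529). For Sqle it was 0.19 (limma adjusted p = 0.000446), with overlapping spots on all arrays, and 0.18 with the normexp correction (limma adjusted p = 0.479).

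**Figure D3:**
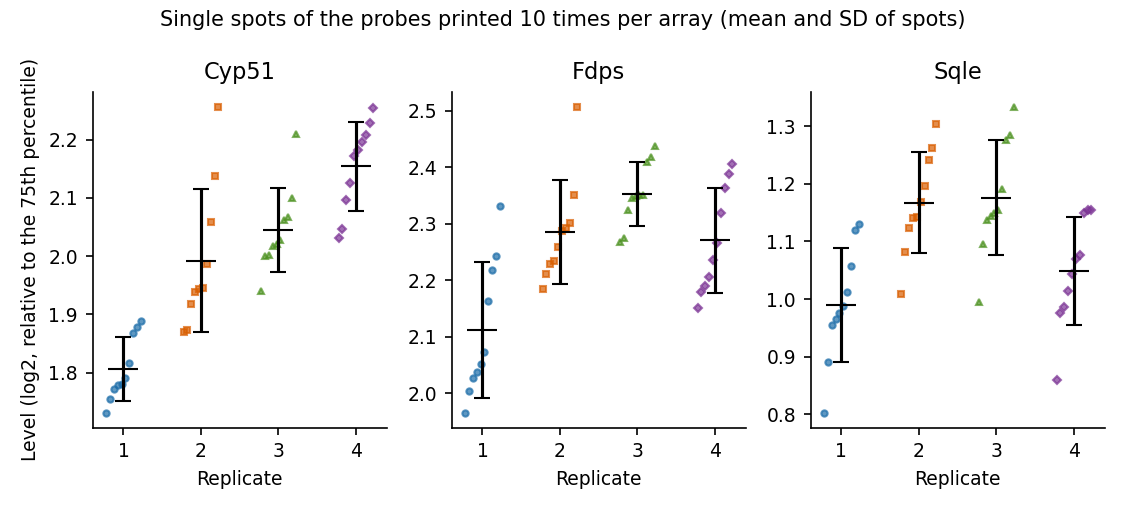
Levels (log2, relative to the array's 75th percentile) of the 10 single spots per array of the Cyp51, Fdps and Sqle probes, with the mean and SD over spots in black and an axis of its own for each gene. For Cyp51 the spots of replicate 4 lie above all spots of replicate 1, while for Fdps and Sqle the arrays overlap.

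Genes with a pair of probes give a ratio within each array that a shift of the whole array cannot change. For Lss the log2 difference between probes was 0.07, 0.12, -0.01 and 0.12 on replicates 1 to 4, and for Idi1 it was 0.96, 0.82, 0.80 and 0.82. These held to within 0.14 and 0.16 across arrays. For Insig1 the difference was 1.74, 1.82, 1.57 and 1.51, a range of 0.31. For Cyp51 it was 1.07, 1.30, 1.29 and 1.57, a range of 0.50, beside a median range of 0.29 over the 1403 named genes with 2 detected probes. The Cyp51 probes thus moved apart on replicate 4 and together on replicate 1, so the gene's mean level of 1.35 ± 0.06 (SD, n = 4) hides a disagreement. Which probe follows the transcript was not tested.

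**Figure D4:**
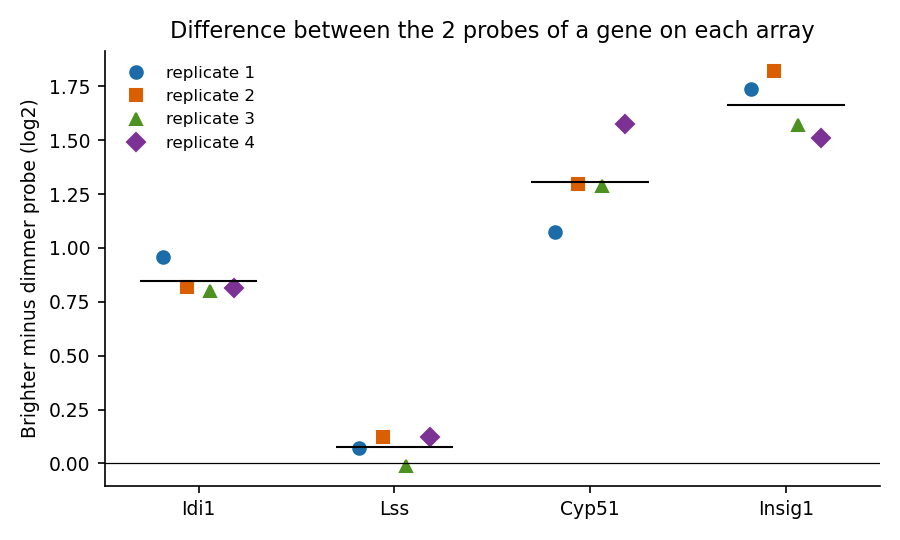
Log2 difference between the brighter and the dimmer probe of the 4 genes with 2 probes, 1 symbol per replicate, with the mean as a line. The Cyp51 difference ranges from 1.07 on replicate 1 to 1.57 on replicate 4, whereas Lss and Idi1 hold within 0.16.

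The rest of the pathway was largely measurable too. All 6 other mevalonate genes were detected, with a median SD of 0.0841. Acat2, which makes acetoacetyl-CoA, averaged -1.85 ± 0.02 over its 4 probes (SD, n = 4). The mevalonate kinase gene Mvk was at -1.18 ± 0.08 and the phosphomevalonate kinase gene Pmvk at 0.13 ± 0.09 (SD, n = 4 each).

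Of the other genes that turn lanosterol into cholesterol, 7 of 7 with a probe were detected, with a median SD of 0.0987, and no probe was matched to Lbr. Tm7sf2, a sterol reductase, was at -0.17 ± 0.16, lowest on replicate 1 at -0.37. The sterol methyl oxidase gene Msmo1 was at 2.65 ± 0.04 and Nsdhl, a dehydrogenase of the same demethylation steps, at -2.30 ± 0.02 (SD, n = 4 each).

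Genes that control SREBP or sterol supply were detected for 8 of 10 with a probe, with a median SD of 0.0914. The SREBP genes Srebf1 and Srebf2 were at -1.01 ± 0.06 and 2.02 ± 0.08, the escort gene Scap at 0.67 ± 0.15 and Insig2, the relative of Insig1, at -4.38 ± 0.10 (SD, n = 4 each). Mbtps2, which encodes the second of the proteases that release SREBP, was among those not detected. Its probes had signals of 3.94 to 5.02, and neither passed the background test on any array.

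Fatty acid synthesis targets of SREBP were detected for 6 of 9 genes, with a median SD of 0.0841 among them. Acly, which makes cytosolic acetyl-CoA for both sterols and fatty acids, was at 2.62 ± 0.04, and Acaca, the carboxylase that starts fatty acid synthesis, at -4.87 ± 0.08 (SD, n = 4 each). Fasn, the fatty acid synthase gene, and the desaturase genes Scd and Fads1 were not well above background. Their signals were 4.26 to 5.19 for Fasn, 4.14 to 5.17 for Scd and 3.37 to 10.5 for Fads1. With a looser detection flag Fasn and Fads1 passed on 2 arrays each, and Scd and Mbtps2 on 1. A probe that is not well above background gives only a bound on its transcript, and 1 probe each was read for Fasn, Scd and Fads1.

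**Figure D5:**
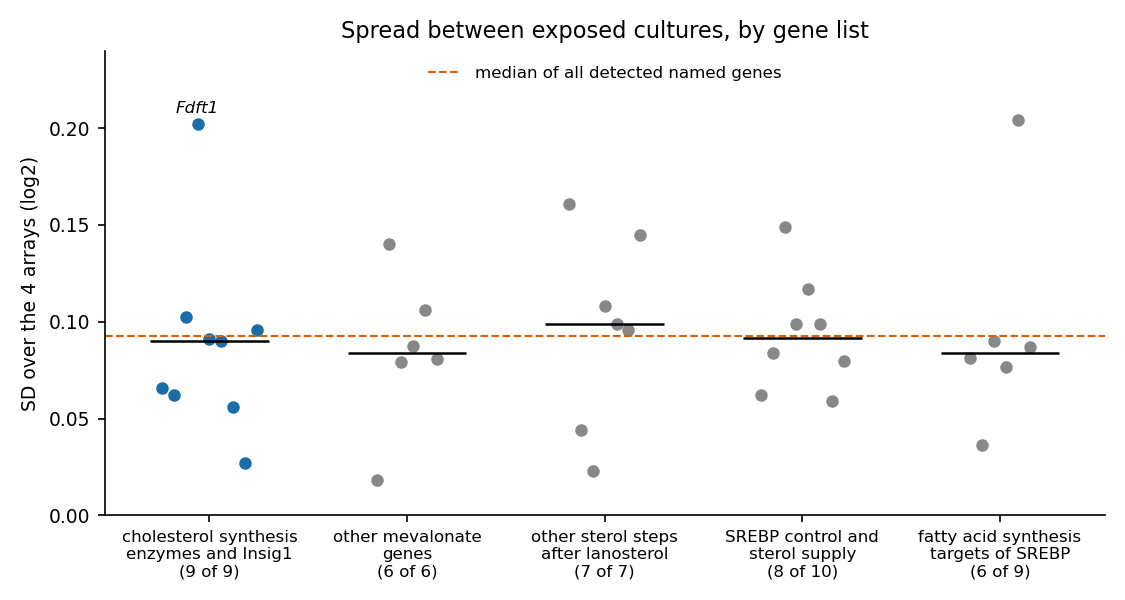
SD over 4 arrays (log2) of each detected gene in the members' list (blue) and in 4 lists of related genes (grey), with list medians as black lines and the median of all detected named genes dashed. Numbers under the axis give the genes detected of those with a probe; list medians lie between 0.0841 and 0.0987, close to the 0.0926 of all genes, and Fdft1 is the highest member.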

How the data were processed

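Agilent Feature Extraction 11.0.1.1 read the spots, as the file headers state. Per the file headers, the deposited intensity called processed signal had its background subtracted and spatial trends removed inside each array, without scaling between arrays. The error of that intensity, the raw median intensities of spot and local background and the flags of 0 or 1 were used as deposited.

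Control spots and spots flagged as outliers (427 to 714 per array) were left out, and the log2 signals of repeated spots were averaged. A probe was detected where over 50% of its spots were well above background. For scaling, an array's 75th percentile was taken over the 17807 probes that all 4 arrays detected. A gene's level is the mean of its detected probes. Names came from RefSeq accessions through rat genes of assembly GRCr8, and 21109 of 45598 probes had 1. The headers name another build, so gene coordinates are not given beyond the RefSeq promoters.

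Limma 3.58.1 in R 4.3.3 moderated the spread in the F test over replicate spots, which was checked on simulated data. All 4 arrays lay on 1 slide, and their number limits the precision. Members, lists and tests were chosen with earlier results of these data known. The text names the 9 members, up to 4 genes of each related list in its written order, and genes that a count singled out after their values were seen; some genes of the related lists are not reported here. Alternatives were another background correction, 3 scalings, a looser detection flag, other filters on dim probes, the brightest probe per gene, outlier spots kept, an unmoderated F test and each replicate left out. Figures were drawn with matplotlib 3.10.9.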

Additional observations from a re-analysis of the deposited data

Results flagged for a closer look

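Dixon's test at the 95% level was used to look for 1 array far from the rest in 40 series of 4 values, namely the detected genes of the members' and related lists and the probe differences of 4 genes. It was found in 2 of the 40, no more than the share of about 5% that chance passes. Insig1 was at 0.835 on replicate 4, against 0.62 to 0.66 on the other arrays (log2, mean of both probes). The brighter Insig1 probe alone was at 1.59 there, close to 1.57 on replicate 2. The dimmer was at 0.08, against -0.25 to -0.13 on the others. The log2 difference between the Idi1 probes was 0.959 on replicate 1, against 0.80 to 0.82 on the others.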

How the results depend on the processing

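Detection of 9 of 9 members and the count of 0 spanning over 2-fold were the same under every alternative run. The members' median SD stayed between 0.0630 and 0.0913, and it lay below the median over all genes kept in each run. With the brightest probe per gene it was 0.0913, beside 0.0928 over all genes. Without replicate 2 it was 0.0685 beside 0.0922, and without replicate 4 it was 0.0630 beside 0.0797. Of the 3 probes printed 10 times, 1 differed between arrays with normexp correction of the median signals, where 226 of 1742 probes did in place of 742. Fdps and Sqle were the others, and the cause was not tested. Without replicate 1, 2 of the 3 differed, and Fdps did not. The other alternatives of that test, an unmoderated F test included, left all 3 past the threshold. Mean levels moved together by 2.43 with median centring, by 3.61 with the percentile of all probes and by 0.78 with the looser flag, since these choose another zero, and by -0.21 to 0.25 with normexp. Taking the brightest probe per gene raised levels by up to 0.83, over 1 SD for 3 of the 9. Leaving out replicate 1 raised levels by 0.03 to 0.127, over 1 SD for 8 of the 9. This too chose another zero, since the percentile was then taken over probes detected on all arrays kept. Dhcr7 rose from 0.239 to 0.317, although replicate 1 lay only 0.0007 above its mean. These moves therefore do not measure how far replicate 1 lay from the other arrays. Leaving out replicate 4 moved 2 of the 9 by over 1 SD, and leaving out replicate 2 or 3 moved none that far. The zero was chosen anew in these runs as well. Dhcr7 moved from 0.239 to 0.276 without replicate 4, although its departure on that array was 0.013. The number of detected named genes spanning over 2-fold was 96 of 8685, against 21 of 8685 with normexp. It was 44 of 8845 without replicate 1 and 64 of 8691 without replicate 2, where the range is over fewer arrays. Requiring detection on only 3 arrays gave 161 of 8937, and the looser flag gave 777 of 10158. Keeping all dim probes gave 2485 of 16580 genes, detected or not. Signal over background limits what can be said of Fasn, Scd, Fads1 and Mbtps2. No paired analysis was possible because the samples form 1 group.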
